A study of Mus musculus with 30 samples.

Results

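The aryl hydrocarbon receptor (AhR) and 6 genes of its pathway were read in 3T3-L1 cells, a clonal mouse preadipocyte line. The 7 genes were chosen by name from the count table of 54232 genes, because indoxyl sulphate is a ligand of the receptor. They are Ahr itself, its partner Arnt, its repressor Ahrr, and the targets Cyp1a1, Cyp1b1, Tiparp and Aldh3a1. All cells had been kept in adipogenic medium with insulin, dexamethasone, isobutylmethylxanthine and indomethacin. Control cells received no further agent, and the other groups received pNaKtide (0.7 µM), indoxyl sulphate (IS, 100 µM), IS + pNaKtide at these doses, oxidized LDL (oxLDL, 50 µg/mL) or oxLDL + pNaKtide at these doses. The labels give 5 days of treatment and the study's methods a shorter time. The 6 groups held 5 libraries each, and since nothing in the labels says that libraries of a group came from separate cultures, p-values measure the spread between these libraries, which may be technical.

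AhR is a transcription factor of the bHLH-PAS family that waits in the cytosol in a complex with HSP90 proteins and the co-chaperone p23. When a ligand binds, the receptor enters the nucleus, pairs with ARNT and binds the xenobiotic response element, whose core is GCGTG, near genes for drug-metabolizing enzymes. Ahrr and Tiparp are themselves induced and restrain the receptor, which closes a feedback loop. Cyp1a1 is the classical target in liver and epithelia, Cyp1b1 is the CYP1 enzyme of mesenchymal cells such as embryo fibroblasts, and dioxin acting on the receptor is known to hinder adipogenesis in 3T3-L1 cells. IS is a uremic toxin made in the liver from bacterial indole, oxLDL is an oxidized lipoprotein, and pNaKtide is a cell-permeant peptide that blocks signaling through the Na,K-ATPase and Src.

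The promoters of 5 of the 7 genes were found in RefSeq sequences of GRCm38.p6, without Ahr and Aldh3a1, and 4 are shown, those of the feedback genes and the CYP1 targets. Each runs from 250 bases before to 50 bases after the RefSeq start site, 5′ to 3′ on the strand of the gene, and the response element core is in capitals, as GCGTG or, where it lies on the other strand, as CACGC.
Cyp1b1, chr17:79715012-79715311, minus strand: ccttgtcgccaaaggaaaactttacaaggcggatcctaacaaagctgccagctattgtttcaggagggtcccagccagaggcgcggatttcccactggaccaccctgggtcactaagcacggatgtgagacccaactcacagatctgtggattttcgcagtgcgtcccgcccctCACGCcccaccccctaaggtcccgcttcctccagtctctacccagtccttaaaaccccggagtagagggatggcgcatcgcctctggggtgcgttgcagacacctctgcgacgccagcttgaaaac
Tiparp, chr3:65528197-65528496, plus strand: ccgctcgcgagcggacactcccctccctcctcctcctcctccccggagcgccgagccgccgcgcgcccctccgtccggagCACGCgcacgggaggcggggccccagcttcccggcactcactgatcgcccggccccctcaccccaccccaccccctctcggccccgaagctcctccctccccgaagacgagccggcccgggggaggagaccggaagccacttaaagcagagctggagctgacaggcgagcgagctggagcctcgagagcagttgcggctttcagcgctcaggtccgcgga
Cyp1a1, chr9:57697363-57697662, plus strand: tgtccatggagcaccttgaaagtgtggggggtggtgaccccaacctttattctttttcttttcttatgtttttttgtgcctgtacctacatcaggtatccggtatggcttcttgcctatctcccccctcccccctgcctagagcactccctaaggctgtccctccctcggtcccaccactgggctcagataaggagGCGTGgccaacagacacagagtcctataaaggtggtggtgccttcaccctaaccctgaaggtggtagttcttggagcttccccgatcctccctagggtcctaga
Ahrr, chr13:74292282-74292581, minus strand: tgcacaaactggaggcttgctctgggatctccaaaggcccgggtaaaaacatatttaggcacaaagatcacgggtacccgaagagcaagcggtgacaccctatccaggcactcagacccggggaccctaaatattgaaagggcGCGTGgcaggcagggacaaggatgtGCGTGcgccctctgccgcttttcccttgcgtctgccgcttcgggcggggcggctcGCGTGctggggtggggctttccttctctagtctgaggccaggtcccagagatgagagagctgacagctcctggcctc

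All 4 windows held the core, and Arnt had 1 copy as well. The Cyp1b1 copy began at -76 relative to the start site and the Tiparp copy at -170, both on the other strand. Cyp1a1 had 1 copy at -54, and Ahrr had 3 copies at -107, -82 and -27. On both strands, GCGTG was present in 32.4% of 32851 promoter windows of this length, so that a match is a description and not a site. The longer form TNGCGTG, which contains the core, was present in 5.1% of windows and in 1 copy among these genes, in the Ahrr promoter.

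The libraries held 6945498 to 15159877 counts on genes, 11524210 in the median. The adipocyte markers Cidec, Lpl and Fabp4 were the most abundant of their list, and the macrophage markers Ptprc and Itgam were at 0 counts in all 30 libraries. Some libraries stood apart from their group. On the first principal component of log2 CPM (counts scaled to a common library total), which held 64.4% of the variance over 12580 genes, control replicate 1 scored -25.8, inside the oxLDL range of -41.9 to -14.7, where the other control libraries scored from 6.47 to 29.9. IS replicate 4 scored 28.2, with the other IS libraries between -36.7 and -23.2, and oxLDL + pNaKtide replicate 4 scored 67.5, with the others of its group between 14.5 and 33.2.

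The 7 genes differed widely in level. On the authors' FPKM scale, which allows for gene length, Cyp1b1 led with a mean of 52.1 over the 30 libraries, higher than 92.6% of the genes tested. Tiparp at 9.59 and Arnt at 7.87 followed, and Aldh3a1 at 1.082 came next. Ahr itself had a mean of 0.177 FPKM, higher than 22.1% of the genes tested. Cyp1a1 at 0.0263 and Ahrr at 0.00126 FPKM were at the bottom. Of the 7, Ahrr was not tested because its counts summed to no more than 14, and Cyp1a1 was tested but averaged under 10 counts per library, so that neither could be read for changes.

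**Figure D1:**
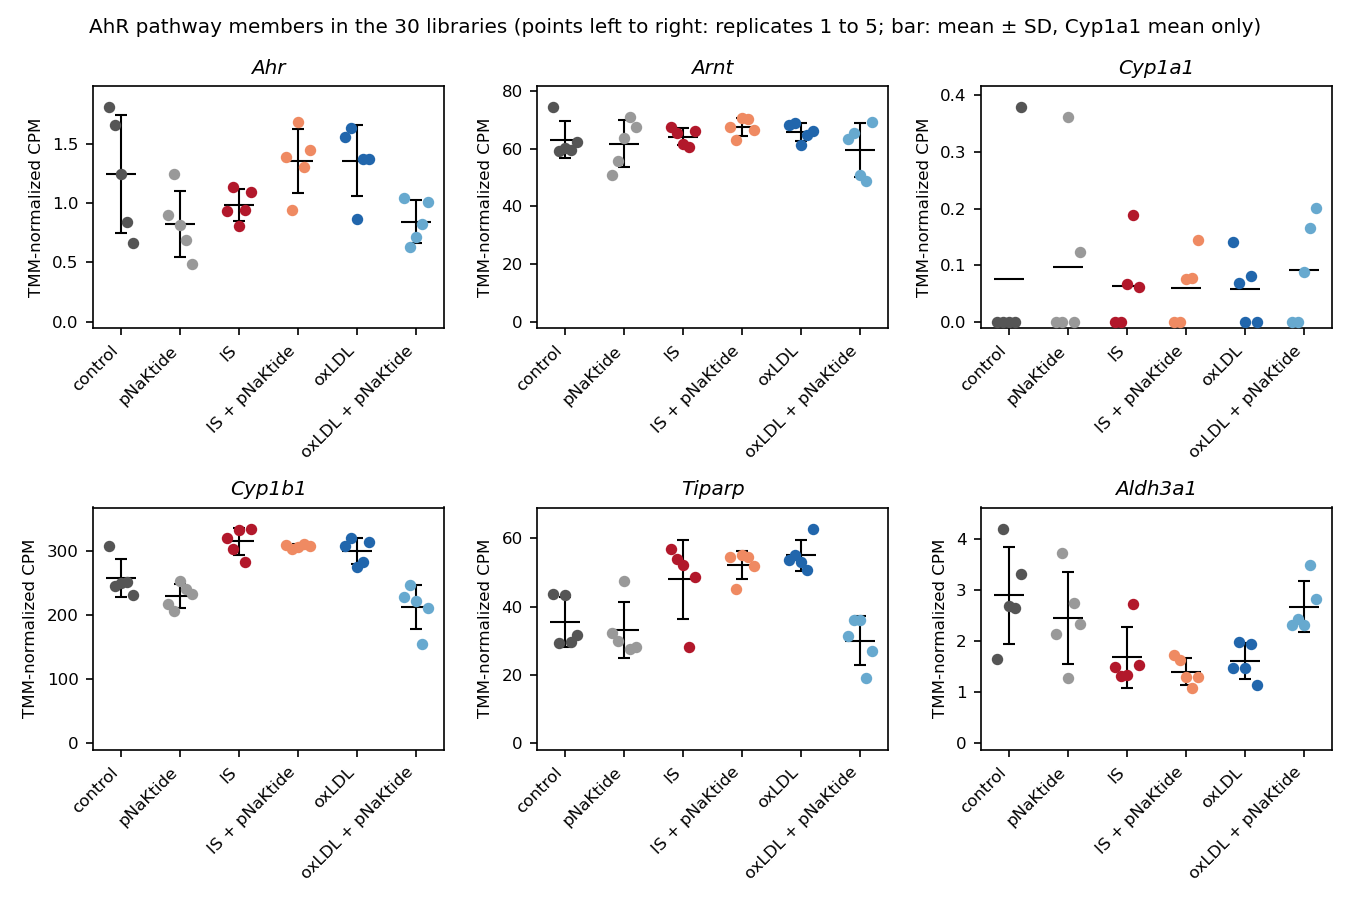
TMM-normalized CPM (vertical axes) of the 6 tested genes in each of the 30 libraries, by group, with replicates 1 to 5 from left to right and the mean ± SD of 5 libraries as black bars. Cyp1b1 and Tiparp lie higher in the IS, IS + pNaKtide and oxLDL groups (Tiparp means of 48.0 to 55.0) than in the other 3 (29.99 to 35.5), and Aldh3a1 lies the other way, with means of 1.40 to 1.68 against 2.44 to 2.89.

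The receptor was present at a low level in every library. Ahr (ENSMUSG00000019256, chromosome 12 of GRCm38, 35497974 to 35535038, minus strand) had 4 to 24 counts per library. TMM-normalized CPM were 1.81, 1.66, 1.24, 0.844 and 0.662 in control replicates 1 to 5, and 0.938, 1.14, 0.805, 0.939 and 1.097 with IS. The 5 IS libraries lay inside the control range. With oxLDL, Ahr had 1.55, 1.63, 0.865, 1.37 and 1.37 CPM, also inside the control range. Mean Ahr levels ran from 0.827 CPM with pNaKtide through 0.844 with oxLDL + pNaKtide, 0.983 with IS, 1.24 in control cells and 1.35 with IS + pNaKtide to 1.36 with oxLDL, and each group overlapped with the next in this order. The log2 fold change of Ahr was -0.36 with IS (SE 0.24, edgeR quasi-likelihood test over 20139 genes, adjusted p = 0.349) and 0.13 with oxLDL (SE 0.23, edgeR adjusted p = 0.719).

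Arnt, the partner of AhR and also of the hypoxia-inducible factors, was not called in any comparison under TMM scaling. Arnt (ENSMUSG00000015522, chromosome 3, 95434388 to 95497240, plus strand) had group means from 59.5 ± 9.24 CPM with oxLDL + pNaKtide to 67.6 ± 3.06 CPM with IS + pNaKtide (SD, n = 5), and single libraries between 48.7 and 74.3 CPM. All 6 groups overlapped. The log2 fold change was 0.02 with IS (95% interval -0.16 to 0.21) and 0.06 with oxLDL (-0.13 to 0.25), and adjusted p-values were 0.890 and 0.674 in edgeR.

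The classical target and the repressor were too low to read. Cyp1a1 (ENSMUSG00000032315, chromosome 9, 57687928 to 57703824, plus strand), which oxidizes polycyclic aromatic compounds, had 25 counts in all 30 libraries together and 0 in 15 of them. The 5 IS libraries held 0, 0, 1, 2 and 1 Cyp1a1 counts, the control libraries 0, 0, 0, 0 and 4, and the oxLDL libraries 2, 1, 0, 1 and 0. With 4 counts per group, the depth-corrected ratio of IS to control was 0.807 with a 95% counting interval of 0.150 to 4.33, and that of oxLDL to control was 0.971 (0.181 to 5.21). Changes within these intervals were not detectable at this depth. All 4 control counts came from control replicate 5, so that the direction rested on that library. Without it the fitted log2 fold change of Cyp1a1 was 2.60 with IS and 2.79 with oxLDL (edgeR adjusted p = 0.347 and 0.193), values that depend on how 0 counts are fitted and are no bound. Ahrr (ENSMUSG00000021575, chromosome 13, 74211118 to 74292331, minus strand), which competes with AhR for ARNT, had 4 counts in all, namely 1 in control cells, 2 with IS + pNaKtide and 1 with oxLDL + pNaKtide. With IS it had 0 counts of 70078292, which allows up to 0.0428 CPM (3 counts, counting error only).

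Cyp1b1 was the abundant CYP1 enzyme of these cells and was modestly higher with both agents. Cyp1b1 (ENSMUSG00000024087, chromosome 17, 79701537 to 79715061, minus strand) metabolizes steroids, retinoids and aromatic hydrocarbons, and its gene start lies in the promoter shown above. It had 308, 245, 251, 252 and 231 CPM in control replicates 1 to 5. With IS it had 320, 303, 332, 282 and 334 CPM, and with oxLDL 308, 319, 275, 282 and 314 CPM. Apart from control replicate 1, every control library lay below every IS and oxLDL library. The mean rose from 257 ± 29.5 CPM to 314 ± 21.5 with IS (SD, n = 5), by 0.29 as a log2 fold change (SE 0.09, edgeR adjusted p = 0.0882) or 1.22-fold with a 95% interval of 1.07 to 1.40. With oxLDL it rose to 300 ± 19.8 CPM, by 0.22 as a log2 fold change (SE 0.10, edgeR adjusted p = 0.0797) or 1.17-fold (1.02 to 1.33). Neither call was firm. With the trend over GC content and length of each library taken out, the log2 fold changes were 0.13 with IS and -0.02 with oxLDL, neither called. Of the 10 fits that left out 1 library, Cyp1b1 was called in 2 with IS and in 3 with oxLDL. Group means ordered from 213 CPM with oxLDL + pNaKtide through 230 with pNaKtide, 257 in control cells, 300 with oxLDL and 307 with IS + pNaKtide to 314 with IS, and neighbours in this order overlapped.

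Tiparp, the AhR-induced ADP-ribosyltransferase that dampens the receptor, was higher with oxLDL. Tiparp (ENSMUSG00000034640, chromosome 3, 65528410 to 65555518, plus strand) had 43.7, 29.3, 43.3, 29.8 and 31.7 CPM in control replicates 1 to 5 and 53.5, 55.0, 53.0, 50.6 and 62.7 CPM with oxLDL. These groups did not overlap. The log2 fold change with oxLDL was 0.63 (SE 0.17, edgeR adjusted p = 0.0104), or 1.55-fold with a 95% interval of 1.22 to 1.95. With IS it had 56.9, 53.8, 52.2, 28.1 and 48.8 CPM, with 4 libraries above every control library and replicate 4 below all of them. The log2 fold change with IS was 0.44 (SE 0.17, 95% interval 0.10 to 0.77), which did not pass the threshold of 0.1 (edgeR adjusted p = 0.116). The order of Tiparp means was the same as for Cyp1b1 at the low end, with 29.99 CPM for oxLDL + pNaKtide, 33.1 for pNaKtide and 35.5 for control cells, and then 48.0 for IS, 52.2 for IS + pNaKtide and 55.0 for oxLDL, again with overlap between neighbours. The antisense gene 4931440P22Rik overlaps Tiparp and had 231 counts against 15418 for Tiparp, and the strand setting of the counting is not given in the sources used here.

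Aldh3a1, an aldehyde dehydrogenase that AhR ligands induce in hepatoma cells, was lower with both agents. Aldh3a1 (ENSMUSG00000019102, chromosome 11, 61207537 to 61218421, plus strand) had 12 to 53 counts per library. Normalized values were 1.64, 4.19, 2.67, 2.64 and 3.31 CPM in control replicates 1 to 5, 1.5, 1.32, 1.34, 2.72 and 1.52 CPM with IS, and 1.48, 1.97, 1.48, 1.93 and 1.14 CPM with oxLDL. Both treated groups overlapped with the controls, through control replicate 1 at 1.64 CPM and, for IS, replicate 4. Aldh3a1 fell by 0.82 on the log2 scale with IS (SE 0.24, edgeR adjusted p = 0.0694) and by 0.84 with oxLDL (SE 0.24, edgeR adjusted p = 0.0141). In fold terms these were 0.565 (95% interval 0.405 to 0.790) and 0.558 (0.395 to 0.786) of the control level. The lowest mean was 1.40 CPM with IS + pNaKtide, followed by 1.60 with oxLDL, 1.68 with IS, 2.44 with pNaKtide, 2.67 with oxLDL + pNaKtide and 2.89 in control cells, each overlapping the next.

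In all, IS gave 2 calls among the 6 members tested, Cyp1b1 higher and Aldh3a1 lower, where edgeR called 7.94% of all genes tested (4.45% higher and 3.49% lower). OxLDL gave 3 calls, Cyp1b1 and Tiparp higher and Aldh3a1 lower, where 36.0% of all genes were called (18.1% higher and 18.0% lower). With the trend over GC content and length of each library taken out, the calls of Cyp1b1 with IS and of Cyp1b1 and Tiparp with oxLDL were lost, Cyp1b1 with oxLDL changed sign, and both calls of Aldh3a1 held. Both comparisons use the same 5 control libraries. No member differed between IS and oxLDL at the threshold, where 0.0149% of all genes were called. The 95% intervals of the difference, IS minus oxLDL on the log2 scale, were -0.12 to 0.26 for Cyp1b1, -0.53 to 0.14 for Tiparp and -0.50 to 0.54 for Aldh3a1. For Ahr it was -0.96 to -0.02 (unadjusted p = 0.0419, edgeR adjusted p = 0.856). In whole cultures, fewer cells that express a gene and less of its RNA per cell cannot be told apart.

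**Figure D2:**
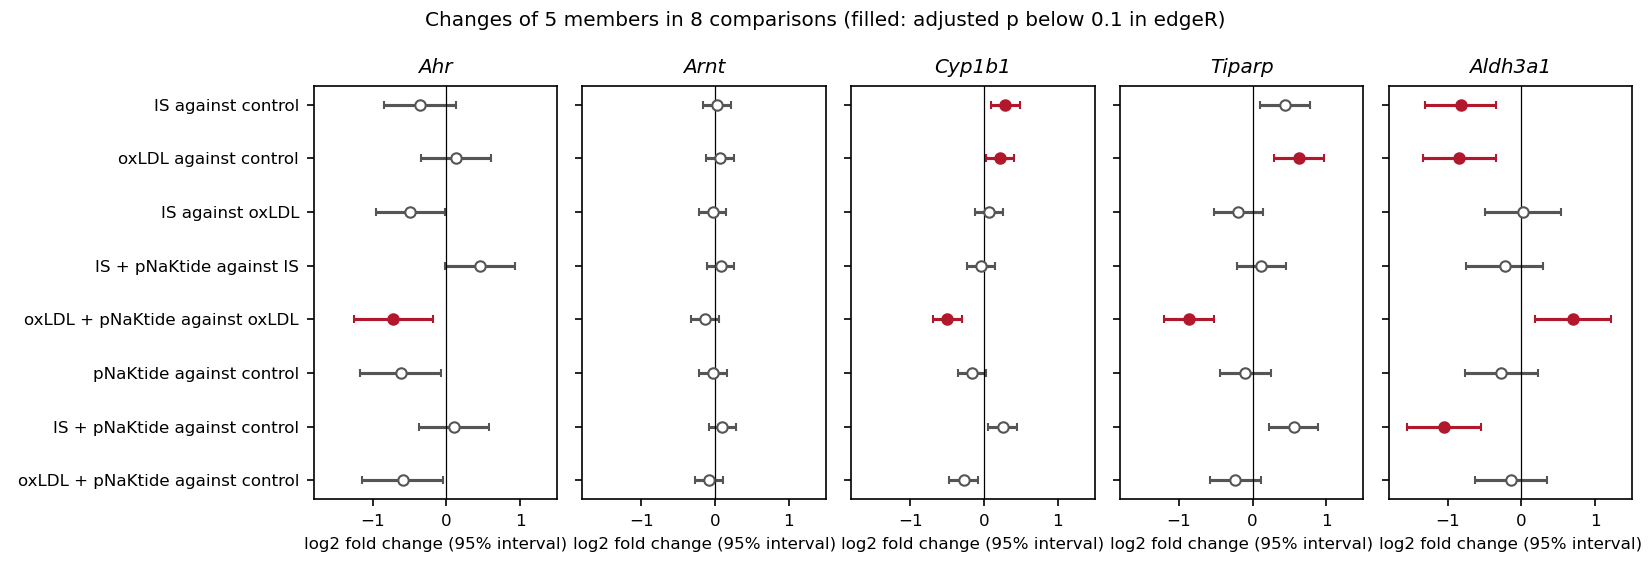
Log2 fold changes (horizontal axes) of 5 members in the 8 comparisons of groups, with 95% intervals and filled points at an adjusted p below 0.1 in edgeR. Cyp1b1 is called with IS (0.29) and oxLDL (0.22), Tiparp with oxLDL (0.63) and Aldh3a1 with both (-0.82 and -0.84), and in oxLDL + pNaKtide against oxLDL 4 of the 5 are called (Ahr -0.72, Cyp1b1 -0.50, Tiparp -0.86, Aldh3a1 0.70), where 48.3% of all genes were.

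The calls with IS rested on which libraries were used. Without control replicate 1 and IS replicate 4, the pair that stood apart on the first component, the log2 fold changes with IS were 0.40 for Cyp1b1 (edgeR adjusted p = 0.00106), 0.66 for Tiparp (0.000871) and -1.18 for Aldh3a1 (0.000137), where 45.4% of all genes were called. Both were picked from these same data because each scored with the opposite group. Leaving out either or both therefore widens the difference by construction, and the p-values of such fits are no added support. Leaving out only control replicate 1 gave 0.36, 0.52 and -0.98, and leaving out only IS replicate 4 gave 0.33, 0.57 and -1.02, and all 3 genes passed in each case. Leaving out any of the other 8 libraries instead ended the calls of Cyp1b1 and Aldh3a1, with adjusted p-values in edgeR of 0.128 to 0.225 and 0.103 to 0.215. The log2 fold changes in these 8 fits were 0.25 to 0.30 for Cyp1b1 and -0.85 to -0.64 for Aldh3a1. With oxLDL, Tiparp and Aldh3a1 passed without any 1 of the 10 libraries, and Cyp1b1 passed in 3 of these 10 fits, namely without control replicate 1, oxLDL replicate 3 or oxLDL replicate 4 (edgeR adjusted p = 0.0135, 0.0630 and 0.0705).

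With pNaKtide added to oxLDL, Cyp1b1, Tiparp and Ahr were lower and Aldh3a1 was higher than with oxLDL alone. The adipocyte markers Adipoq and Cidec and the preadipocyte marker Dlk1 were higher and Pdgfra was lower in the same comparison, and their part in these values was not tested. Cyp1b1 had 228, 247, 221, 155 and 212 CPM in oxLDL + pNaKtide replicates 1 to 5, all below the lowest oxLDL library at 275 CPM, and fell by 0.50 on the log2 scale (SE 0.10, edgeR adjusted p = 0.000147). Tiparp had 31.5, 36.2, 36.1, 19.2 and 27.0 CPM, all below the lowest oxLDL library at 50.6 CPM, and fell by 0.86 (SE 0.17, edgeR adjusted p = 0.000172). Replicate 4 of oxLDL + pNaKtide was the lowest of all 30 libraries for both genes. Aldh3a1 had 2.32, 2.43, 2.31, 3.48 and 2.82 CPM, all above the highest oxLDL library at 1.97 CPM, and rose by 0.70 (SE 0.25, edgeR adjusted p = 0.0258).

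The receptor gene was also lower in this comparison. Ahr had 1.04, 0.633, 0.711, 0.828 and 1.007 CPM with oxLDL + pNaKtide, overlapping the oxLDL group only through oxLDL replicate 3 at 0.865 CPM, and fell by 0.72 (SE 0.26, edgeR adjusted p = 0.0258), a change between groups of 5 to 10 and 7 to 24 raw counts per library. Arnt had a log2 fold change of -0.14 (95% interval -0.33 to 0.05) and was not called. Arnt was called at -0.37 (edgeR adjusted p = 0.00664) when counts were scaled by library size only, a scaling that moved the median of all genes from -0.09 to -0.30, and Aldh3a1 was then no longer called. All 4 calls held without any 1 of the 10 libraries, and with the GC content and length trend taken out only that of Tiparp held, at -0.18 instead of -0.86. The comparison called 48.3% of all genes (22.1% higher and 26.1% lower), and it shares the oxLDL libraries with the comparison of oxLDL and control, so that values of opposite sign in these comparisons are not independent. Against control cells, oxLDL + pNaKtide gave no call among the members, where 5.2% of all genes were called. The lowest adjusted p was that of Cyp1b1, with a log2 fold change of -0.27 (SE 0.10, edgeR adjusted p = 0.115). Ahr had -0.59 (95% interval -1.14 to -0.04, unadjusted p = 0.0361, edgeR adjusted p = 0.248), Tiparp -0.24 and Aldh3a1 -0.14.

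With pNaKtide added to IS, no member was called against IS alone. Cyp1b1 had 309, 302, 305, 310 and 307 CPM with IS + pNaKtide, the narrowest spread of any group, inside the IS range of 282 to 334 CPM. Tiparp had 54.5, 45.3, 55.1, 54.4 and 51.8 CPM and Aldh3a1 1.72, 1.63, 1.30, 1.07 and 1.30 CPM. The 95% intervals of the log2 fold change against IS were -0.23 to 0.16 for Cyp1b1, -0.21 to 0.45 for Tiparp and -0.75 to 0.30 for Aldh3a1. For Ahr, at 1.39, 0.941, 1.68, 1.30 and 1.45 CPM, the log2 fold change was 0.45 (95% interval -0.02 to 0.92). EdgeR called 0.0% of all genes in this comparison, with 564 genes at an unadjusted p below 0.05, and DESeq2 called 14 genes. Against control cells, IS + pNaKtide gave 1 call, Aldh3a1, which fell by 1.05 (SE 0.25, edgeR adjusted p = 0.0741), where 0.358% of all genes were called. This call held without control replicate 1 and was lost without any 1 of the other 9 libraries, with log2 fold changes of -1.21 to -0.86 and an edgeR adjusted p of up to 0.317 over the 10 fits. Tiparp was higher than in every control library, with a log2 fold change of 0.55 (SE 0.17, unadjusted p = 0.00211), and had an adjusted p of 0.147 in edgeR. Cyp1b1 had 0.25 (SE 0.10, edgeR adjusted p = 0.180).

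pNaKtide alone gave no call among the members, where 0.00497% of all genes, a single gene, were called. Cyp1b1 had 217, 206, 253, 240 and 232 CPM, Tiparp 32.2, 30.04, 47.4, 27.7 and 28.2 CPM and Aldh3a1 2.15, 3.72, 1.27, 2.74 and 2.33 CPM. Each of these groups overlapped with the controls. The member furthest from control was Ahr, with 0.903, 1.24, 0.815, 0.686 and 0.491 CPM and a log2 fold change of -0.62 (95% interval -1.17 to -0.07, unadjusted p = 0.0279, edgeR adjusted p = 0.752).

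The differences between the changes with pNaKtide were tested directly. The change with pNaKtide in the presence of oxLDL differed from that in its absence for Cyp1b1 by -0.33 on the log2 scale (adjusted p = 0.0859), for Tiparp by -0.77 (0.0359) and for Aldh3a1 by 0.97 (0.0576, all edgeR), where 24.6% of all genes were called. Between IS and oxLDL, the change with pNaKtide differed for Ahr by 1.18 (SE 0.35, edgeR adjusted p = 0.0207), for Cyp1b1 by 0.46 (0.0199), for Tiparp by 0.98 (0.0101) and for Aldh3a1 by -0.93 (0.0656), where 29.3% of all genes were called. With the GC content and length trend taken out, of these 7 only the difference of Tiparp between the changes with IS and with oxLDL was still called, at 0.37 (edgeR adjusted p = 0.0164). Over all alternatives, this one included, the differences between IS and oxLDL were 0.81 to 1.36 for Ahr and 0.37 to 1.15 for Tiparp. They were 0.08 to 0.64 for Cyp1b1 and -0.97 to -0.50 for Aldh3a1. Without 1 library, the difference between oxLDL and no agent lost the call in 12 of 20 fits for Cyp1b1, in 4 for Aldh3a1 and in 1, without pNaKtide replicate 3, for Tiparp. Aldh3a1 between IS and oxLDL lost the call in 4 of 20 fits, without IS replicate 4, IS + pNaKtide replicate 4, oxLDL replicate 5 or oxLDL + pNaKtide replicate 4, with a difference of -1.02 to -0.72 over the 20 fits. The change with pNaKtide in the presence of IS differed from that in its absence for no member, and 0.0% of all genes were called by edgeR and none by DESeq2, with 619 genes at an unadjusted p below 0.05 in edgeR. Ahr came nearest, with a difference of 1.07 (SE 0.35, unadjusted p = 0.00478, edgeR adjusted p = 1.00).

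The calls of Cyp1b1 and Tiparp changed when a trend over GC content and length was taken out of each library. Counts in each library followed a trend over GC content and transcript length that differed between libraries, and both were taken out together. The longest transcripts of Tiparp and Cyp1b1 have 40.4% and 46.1% GC, below the median of 49.4% over the genes tested. Their lengths of 4191 and 5128 bases lie above the median of 2557. With each library's trend taken out, the log2 fold change of Cyp1b1 was 0.13 with IS (edgeR adjusted p = 0.166) and -0.02 with oxLDL (0.870). That of Tiparp was 0.05 with IS (0.715) and 0.13 with oxLDL (0.227). Aldh3a1, at 53.3% GC and 1729 bases, stayed past the threshold at -0.68 with IS (edgeR adjusted p = 0.0675) and -0.62 with oxLDL (0.0484). For oxLDL + pNaKtide against oxLDL, Tiparp remained called at -0.18 (edgeR adjusted p = 0.0552), while Cyp1b1 at -0.10, Aldh3a1 at 0.44 and Ahr at -0.32 were not. With the trend taken out, edgeR called 5.49% of all genes with IS, 20.5% with oxLDL and 36.7% with oxLDL + pNaKtide against oxLDL. Whether the trend came with the treatment or with the making of the libraries was not tested.

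**Figure D3:**
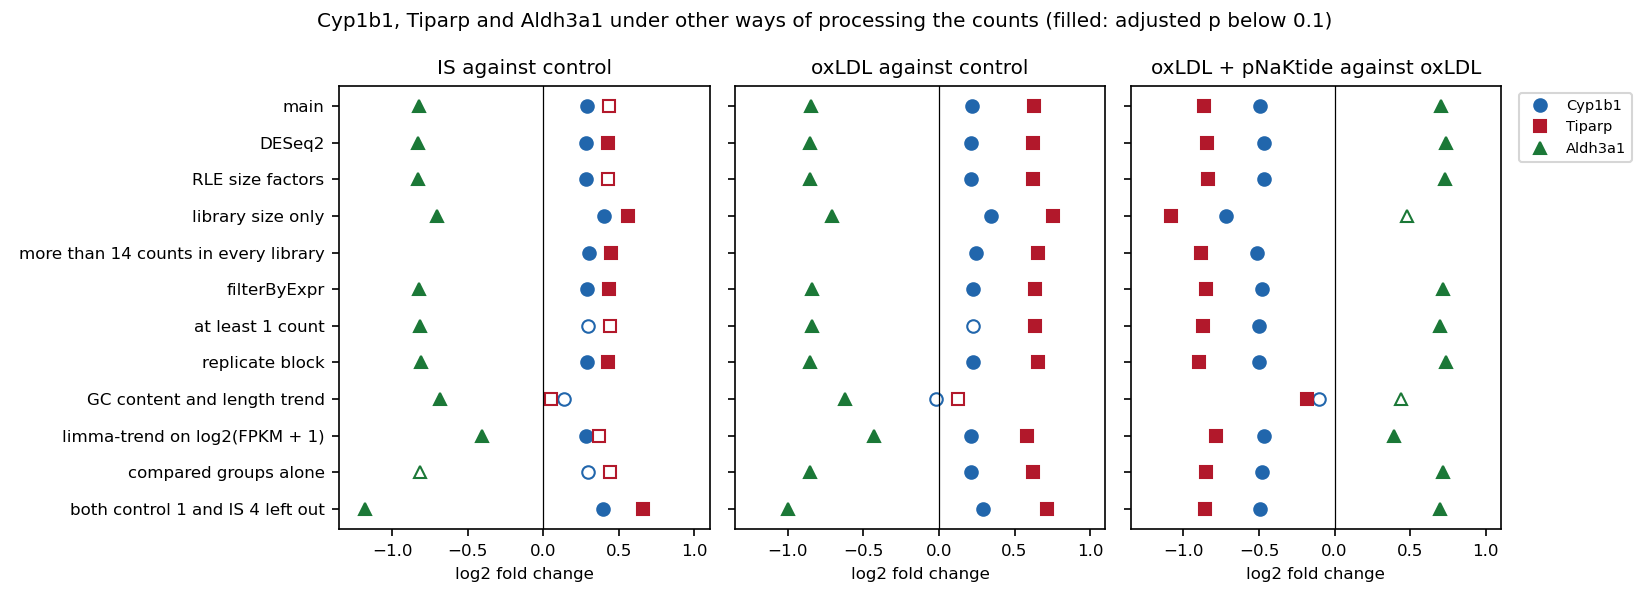
Log2 fold changes (horizontal axes) of Cyp1b1, Tiparp and Aldh3a1 in 3 comparisons under each way of processing the counts (rows), with filled symbols at an adjusted p below 0.1 and no symbol where the gene was filtered out. With the GC content and length trend taken out, Tiparp moves from 0.63 to 0.13 with oxLDL and Cyp1b1 from 0.22 to -0.02, while Aldh3a1 stays between -1.001 and -0.43 with oxLDL in every fit shown.

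Further genes that AhR ligands are known to induce in some tissue were counted as a list of 24, of which 21 were tested. With IS, 1 rose and 1 fell, where 4.45% of all genes were called higher and 3.49% lower. Cd36, the fatty acid and oxLDL receptor, was at 1050.1 ± 198 CPM against 768 ± 101 CPM in control cells (SD, n = 5), with a log2 fold change of 0.45 (edgeR adjusted p = 0.0817), and Slc7a5, a carrier of large neutral amino acids, fell by 0.44 (edgeR adjusted p = 0.0214). The median log2 fold change of the list was -0.02, beside 0.03 over all genes tested. Cyp1a2, Scin and Ido1 were not tested, with 3, 8 and 0 counts in all libraries.

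With oxLDL, 6 of the 21 rose and 3 fell, where 18.1% of all genes were called higher and 18.0% lower, and the median log2 fold change was 0.03 beside 0.04 over all genes. Those that rose were the EGF family ligand Ereg (0.68), Lpcat2 (0.62), the cell cycle inhibitor Cdkn1b (0.58), Cd36 (0.53), Vav3 (0.53) and the efflux pump Abcg2 (0.22). Slc7a5 fell by 0.32, xanthine dehydrogenase (Xdh) by 0.30 and Selenbp1 by 0.61. Nqo1, the quinone reductase that both AhR and Nrf2 induce, had 25.7 ± 0.871 CPM with IS and 25.8 ± 2.14 CPM with oxLDL against 25.1 ± 2.45 CPM in control cells, with log2 fold changes of 0.04 and 0.03 (edgeR adjusted p = 0.820 and 0.793). Nqo1 was singled out after its values were seen. With pNaKtide added to oxLDL, 2 of the list rose and 9 fell, where 22.1% of all genes were called higher and 26.1% lower. Among those that fell were Cd36 by 0.73, Lpcat2 by 0.97 and Nqo1 by 0.34 (edgeR adjusted p = 0.000159, 0.00804 and 0.00167). With the trend taken out, 3 of the list were higher (Ugt1a6a, Xdh and Abcg2) and 6 lower in that comparison, where 18.9% of all genes were called higher and 17.8% lower. Lpcat2 and Nqo1 were still called lower, at -0.80 and -0.28, and Cd36 was not called, at 0.05 (edgeR adjusted p = 0.688). Once the trend over GC content and length was removed, the list held 0 higher and 1 lower call with IS (Slc7a5) and 1 higher (Bax) and 2 lower (Abcg2 and Xdh) with oxLDL, where 2.58% of all genes were called higher and 2.91% lower with IS and 8.99% and 11.6% with oxLDL. Abcg2 turned from 0.22 to -0.43 and Cd36 from 0.53 to -0.07.

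**Figure D4:**
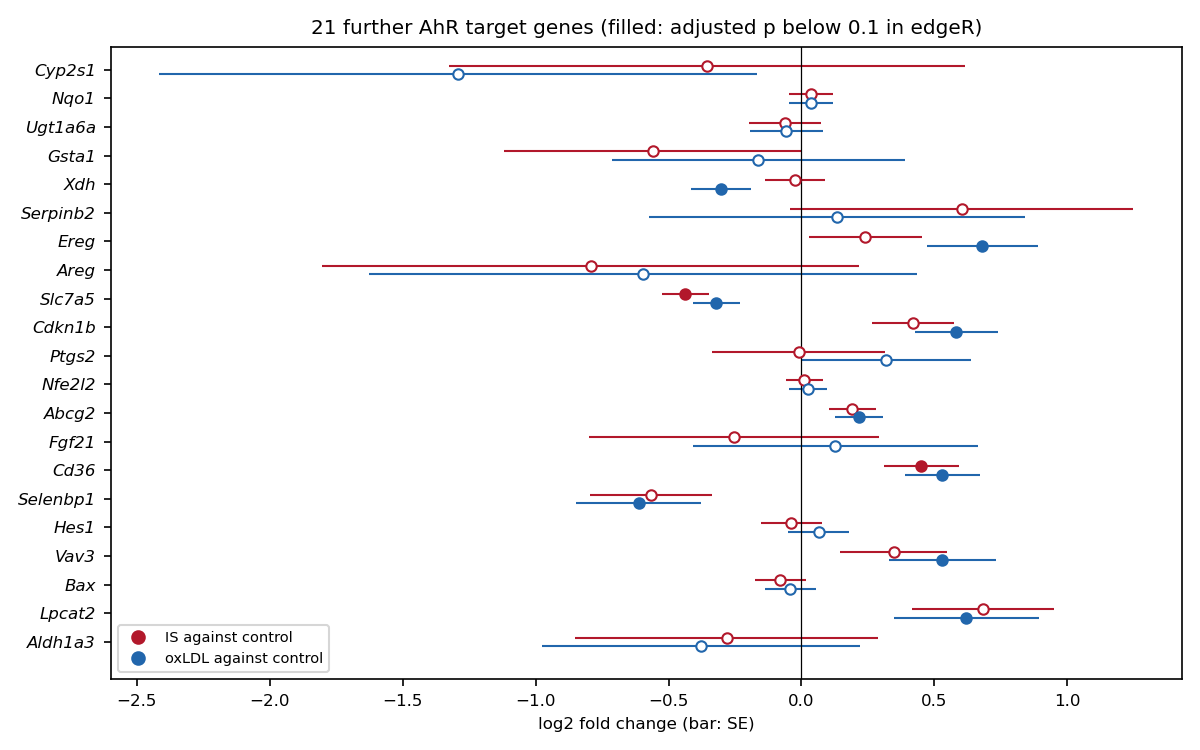
Log2 fold changes (horizontal axis, bars are SE) of the 21 tested genes of the list of further AhR targets with IS and with oxLDL against control cells, filled at an adjusted p below 0.1 in edgeR. The points lie on both sides of 0, with list medians of -0.02 and 0.03, and Nqo1 lies at 0.04 and 0.03.

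In the cytosolic complex and the nuclear partners of AhR (14 genes, all tested), IS gave 1 higher call, the chaperone Hsp90aa1 at 0.38 (edgeR adjusted p = 0.0694), and 1 lower call, Tbl3 at -0.36 (0.0893), where 4.45% of all genes were called higher and 3.49% lower. OxLDL gave 5 higher and 4 lower calls, where 36.0% of all genes were called. Among them, Hsp90aa1 rose by 0.53 (edgeR adjusted p = 0.00702), Ptges3, which encodes p23, by 0.80, Klf6 by 0.51, Rb1 by 0.64 and Cul4b by 0.65, while Hsp90ab1 fell by 0.27, Rela by 0.31 and Tbl3 by 0.52. With oxLDL + pNaKtide against oxLDL, where 48.3% of all genes were called, Hsp90aa1 fell by 0.78 and Ptges3 by 0.92. With the trend taken out they fell by 0.36 and 0.59, both still called, where 36.7% of all genes were. In that fit Ncoa2 (-0.20) and Klf6 (-0.17) were also called lower, Tbl3 was called higher (0.55), and Hsp90ab1 at 0.12 was not called. The median log2 fold change was 0.04 with IS and 0.20 with oxLDL, beside 0.03 and 0.04 over all genes. With the trend taken out, the list held no call with IS, and Hsp90aa1 higher and Hsp90ab1 and Tbl3 lower with oxLDL, where 5.49% of all genes were called with IS and 20.5% with oxLDL.

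Among relatives of AhR and ARNT (13 bHLH-PAS genes, 11 tested), IS gave no call, and oxLDL gave Clock at 0.65 and Hif1a at 0.37 (edgeR adjusted p = 0.0333 and 0.0221), where 18.1% of all genes were called higher. Neither was called with the trend taken out, at 0.06 for Clock and, with the sign turned, -0.11 for Hif1a. Among 12 targets of the hypoxia-inducible factors, which share ARNT, 4 fell and none rose with IS, where 3.49% of all genes were called lower and 4.45% higher. They were led by Ndrg1 (8.22 ± 2.09 to 4.45 ± 0.507 CPM, -0.87 on the log2 scale, edgeR adjusted p = 0.0218) and the glucose transporter Slc2a1 (156 ± 31.6 to 106 ± 6.19 CPM, -0.55, 0.0194), with Egln3 and Egln1 lower by less. With the trend taken out, 4 were again lower with IS, P4ha1 in place of Egln1, where 2.91% of all genes were called lower. With oxLDL, Slc2a1 fell by 0.39 and Egln3 by 0.26, where 18.0% of all genes were called lower. With the trend taken out neither was called (-0.19 and -0.16, edgeR adjusted p = 0.126 and 0.122), and Bnip3 and P4ha1 were called lower and Ddit4 higher, where 11.6% of all genes were called lower and 8.99% higher. For uptake, efflux and making of indole ligands, 6 of 14 genes were tested and only Abcg2 with oxLDL was called, where 36.0% of all genes were called with oxLDL and 7.94% with IS. The uptake carriers Slc22a6, Slc22a8 and Slco4c1 had 0 counts in every library.

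Markers of the cells moved with the agents to some extent. With IS, 2 of 6 adipocyte markers (Adipoq and Cidec) and 2 of 6 preadipocyte or fibroblast markers (Col1a1 and Col3a1) were called lower, where 3.49% of all genes were, and Lpl joined them with the trend taken out (-0.45, edgeR adjusted p = 0.0169). With oxLDL, Cidec, Col1a1 and Dlk1 were called lower, where 18.0% of all genes were. Only Lpl was once the trend was taken out, where 11.6% of all genes were. With pNaKtide added to oxLDL, Adipoq, Cidec and Dlk1 were called higher and Pdgfra lower, where 22.1% and 26.1% of all genes were. Dlk1, which is lost as preadipocytes differentiate, went from 91.7 ± 20.5 to 184 ± 54.2 CPM and Adipoq from 934 ± 125 to 1270.4 ± 122 CPM (SD, n = 5). With the trend taken out, Adipoq, Fabp4, Lpl, Cd34 and Dlk1 were higher and Pdgfra lower in that comparison, where 18.9% of all genes were called higher and 17.8% lower. The summed level of the adipocyte markers was 12088 to 14969 CPM in control cells, 10111 to 12476 CPM with IS, 11559 to 15351 CPM with oxLDL and 14165 to 15720 CPM with oxLDL + pNaKtide. That of the preadipocyte or fibroblast markers was 4510 to 5761, 2793 to 4602, 3673 to 4261 and 3705 to 5342 CPM. The part of cell state in the values of Cyp1b1, Tiparp and Aldh3a1 was not tested. Macrophage marker sums stayed between 3.12 and 7.56 CPM in all groups, mostly Cd68, and of the hepatocyte and endothelial markers none passed a test in these 3 comparisons.

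Across the 30 libraries the members were also set beside all other genes of sufficient level (12567 genes, log2 CPM), as a description in which libraries share treatment, depth and the GC content trend. The genes most like Cyp1b1 were Man1a2, Elf1 and Lpar1 (Pearson r of 0.962, 0.951 and 0.951). Those most like Tiparp were Azin1, Ipo7 and Eif2s3x (0.986, 0.977 and 0.976). Aldh3a1 was most like Ubtd1, Csk and Hmga1 (0.903, 0.894 and 0.880), and Arnt was close to Wnk1 and Aff1 (0.912 and 0.907). Among the members, Cyp1b1 and Tiparp had r = 0.866, Tiparp and Aldh3a1 -0.861, and Cyp1b1 and Arnt 0.659. No member was among the 3 genes most like another.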

How the data were processed

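RNA of 30 libraries of 3T3-L1 cells was analysed. The authors trimmed paired-end reads with Trimmomatic 0.38, aligned them to GRCm38 with HISAT2 2.1.0, and deposited raw counts per gene. In the deposited normalized signal table, a single size factor per library scales the counts, and the FPKM values deposited by the authors are in turn divided by 1 value per gene. Annotation release and strand setting: not given in the sources used here.

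Counts of 20139 genes with more than 14 counts summed over the 30 libraries were TMM-scaled, and 6 group means were fitted in edgeR 4.0.16 (robust quasi-likelihood, R 4.3.3), two-sided, with BH adjustment over all genes tested in a comparison and a threshold of 0.1. The common biological coefficient of variation was 14.0%. Log2 CPM used a prior count of 2. Data were simulated for the IS and control libraries alone (20116 genes), with a biological coefficient of variation of 14% for every gene and no library set apart. Changed genes averaged at least 10 counts. Of these, 60 of 100 changed 1.5-fold and 92 of 100 changed 2-fold were called, with 16 unchanged genes. Some measured libraries stood apart, and the fit of these groups alone called 0 genes, so these shares are not the power of the reported test. Alternatives were DESeq2 1.42.0 and its size factors (RLE), library size, other count filters, an adjusted p of 0.05, a replicate block, GC content and length offsets, limma 3.58.1 on log2(FPKM + 1), the compared groups alone, and leaving out libraries. GC content and length were known for 99.8% of genes tested, from GENCODE annotation of GRCm38.

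The 7 members and the lists were chosen with earlier results of these data known. All members are named. List genes are named where they passed the test with IS or oxLDL, and otherwise only the 2 with the highest counts, apart from untested ones given with their counts. List genes called only with the GC content and length trend taken out, and those named for oxLDL + pNaKtide against oxLDL, were added after their values were seen. Genes of like pattern are the 3 with the highest Pearson correlation. Genes withheld from the text are not reported here by name, though counts over a list include them. No 2 libraries of a group held copied counts (lowest chi-square per degree of freedom 1.28 over 60 pairs). Whether any were technical repeats was not tested.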

Additional observations from a re-analysis of the deposited data

Results flagged for a closer look

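In 36 sets of 5 libraries, 1 for each tested member and group, 6 held a library far from the other 4 by Dixon's test. Its rate of about 1 in 20 holds for independent normal values. These sets share libraries and Cyp1a1 is near 0 counts, so the number flagged is a description and not an excess. In control cells, the highest library was far from the rest for Arnt (74.3 CPM, replicate 1), Cyp1b1 (308 CPM, replicate 1) and Cyp1a1 (0.378 CPM, replicate 5, from 4 counts). With IS, replicate 4 was the lowest for Tiparp (28.1 CPM) and the highest for Aldh3a1 (2.72 CPM). With pNaKtide, replicate 3 was the highest for Tiparp (47.4 CPM).

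The change with pNaKtide differed between settings by a direct test for several members. Between oxLDL and no agent it differed by -0.33 for Cyp1b1, -0.77 for Tiparp and 0.97 for Aldh3a1 on the log2 scale. Between IS and oxLDL it differed by 1.18 for Ahr, 0.46 for Cyp1b1, 0.98 for Tiparp and -0.93 for Aldh3a1. With the GC content and length trend taken out, none of the former and, of the latter, only Tiparp stayed past the threshold, at 0.37 instead of 0.98. Ahr lost its call there but had a difference of at least 0.81 in every alternative that tested it. In the former, the call of Cyp1b1 was lost in 12 of 20 fits that left out 1 library, that of Tiparp without pNaKtide replicate 3 and that of Aldh3a1 in 4 fits, and in the latter that of Aldh3a1 was lost in 4 of 20. The causes were not tested.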

How the results depend on the processing

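Of 708 values of single genes under alternatives, 658 kept their call, 28 lost it, 21 gained it and 1 that was called in the main fit changed sign. Values called in neither fit counted as kept whatever their sign, and some of them changed it. Arnt with IS, for example, ran from -0.04 to 0.14 over the alternatives. The called value that changed sign was Cyp1b1 with oxLDL, at -0.018 without the GC content and length trend. Without 1 library, 782 of 840 values kept the call, 53 lost it and 5 gained it. Of 132 counts of members called, 25 moved by over 1.5 times or between 0 and another count. With IS against control (2 called) the count was 3, with Tiparp added, by library size, with filterByExpr, with the replicate block, in DESeq2 and without control 1 and IS 4. It was 0 at an adjusted p of 0.05 and with the compared groups alone, and 1 with at least 1 count per gene and without the trend. With IS + pNaKtide against control (1 called) it was 0 at 0.05, by library size and with more than 14 counts in every library, which removes Aldh3a1, then 2 with the replicate block, without the trend, in DESeq2 and with the groups alone, and 3 without control 1 and IS 4. With oxLDL (3 called) it was 1 without the trend and 2 at 0.05, with at least 1 count per gene and with more than 14 counts in every library. With oxLDL + pNaKtide against control (0 called) it was 1, Cyp1b1, by library size, with more than 14 counts in every library, with filterByExpr, with the replicate block, in limma-trend and in DESeq2. Against oxLDL (4 called) it was 2 with more than 14 counts in every library and 1 without the trend. The difference between pNaKtide with oxLDL and alone (3 called) had 1 at 0.05 and 0 without the trend, and that between pNaKtide with IS and with oxLDL (4 called) 2 with more than 14 counts in every library and 1 without the trend. Leaving out 1 library gave 0 to 3 calls with IS, 0 to 3 with IS + pNaKtide, 2 to 3 with oxLDL, 0 to 1 with oxLDL + pNaKtide and 4 to 4 for the latter against oxLDL. It gave 0 to 3 and 3 to 4 for the differences, and 0 to 0 elsewhere. Calls over all genes moved too. With IS they went from 1599 to 0 with the compared groups alone and to 9140 without control 1 and IS 4. With IS + pNaKtide against control they went from 72 to 6517 without this pair. Without the trend they went from 7259 to 4138 with oxLDL and from 9722 to 7395 for oxLDL + pNaKtide against oxLDL. Those of the differences then went from 4951 to 2394 and from 5894 to 3608. Apart from the filter on every library, which removes Ahr, Cyp1a1 and Aldh3a1, the causes were not tested.

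Replicate numbers were not taken to pair the libraries in the main fit, and the labels give only the number. Same-numbered libraries of different groups correlated between -0.661 and 0.790 (median 0.0996 over 75 pairs, beside -0.034 for differently numbered ones). Of 30 libraries, 10 correlated best with their own number, with 5 numbers to match. Whether the numbers mark a batch or a pairing was not tested. With the replicate block, Tiparp with IS passed at 0.43 (adjusted p = 0.0512, edgeR), and calls over all genes went from 1599 to 3423 with IS, from 72 to 1338 with IS + pNaKtide and from 1047 to 1653 with oxLDL + pNaKtide, each against control. Over all alternatives these calls ran from 0 to 9140, 8 to 6517 and 11 to 1968, and those with oxLDL (7259) from 4138 to 9591. Of fewer calls, pNaKtide alone (1) reached 57 and IS against oxLDL (3) reached 41, both in DESeq2. Differences between changes had 2394 to 8049 (4951) and 3608 to 6690 (5894) calls. By library size only, 2125 genes were higher and 416 lower with IS (897 and 702 otherwise), 4963 and 2276 with oxLDL (3637 and 3622), and 2696 and 7680 with oxLDL + pNaKtide against oxLDL (4458 and 5264), with medians of all genes at 0.14, 0.17 and -0.30. Arnt was then called in the latter and in the difference between the pNaKtide changes with IS and with oxLDL (0.41, edgeR adjusted p = 0.0545). Depth limits Ahrr and Cyp1a1 throughout, and Ahr at 13.2 counts per library in the mean.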
